A study of Homo sapiens with 12 samples.

Results

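The Eph receptors, ephrins, semaphorins, plexins, neuropilins, netrins, UNC5 proteins, Slits and Robos are the main families of guidance proteins, by which a cell attracts, repels or adheres to its neighbours. Members were chosen by symbol alone, from the protein-coding genes of the count table: Eph receptors and ephrins of classes A and B, semaphorins of classes 3 to 7, plexins, NRP1 and NRP2, netrins with their netrin-G relatives, and the UNC5, SLIT and ROBO genes. They were 70 of the 58288 gene IDs in the table, 37 of them ligands and 33 receptors. Enough counts for a test were found for 46 of the 70, namely 26 ligands and 20 receptors, among 13959 genes tested in all.

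RNA was measured in HK2, an immortalized human line from the proximal tubule of the kidney, with 3 libraries in each of 4 groups. Knockdown cells carried an shRNA against FLCN, which encodes the tumour suppressor folliculin, and nontarget cells carried a control shRNA and were labelled WT. Short-term cells were harvested at fewer than 30 passages, and long-term cells had passed 120 passages according to the sample labels, while the methods of the study name a lower limit for them. All cells grew in DMEM with fetal bovine serum. The labels do not state which clone a library came from, so effects of the shRNA and of a clone were measured together and cannot be told apart.

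Ephrins stay on the cell surface and bind Eph receptor tyrosine kinases of touching cells, a contact that sorts cells and sets tissue borders. Semaphorins, secreted or bound to the membrane, signal through plexins, and most secreted class 3 forms need a neuropilin as co-receptor. Netrins act on DCC, neogenin and UNC5 receptors and Slits on Robo receptors, and in the kidney Slit and Robo signals set where the ureteric bud grows out, while Eph and semaphorin signals act in its vessels and epithelia.

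Each library held between 5825779 and 8991051 counts. Totals were 7279890, 6450077 and 6284233 in short-term nontarget and 8151168, 6898602 and 5825779 in short-term knockdown libraries. Long-term nontarget libraries had 7376720, 6262665 and 7592062 counts, and long-term knockdown libraries had 8991051, 6776525 and 6031734. Levels are given in CPM, counts relative to a library size scaled by TMM. The guidance genes took 0.148% to 0.208% of the counts of a library. A gene with 0 counts in a library can still have had up to 3 counts, which is 0.346 to 0.530 CPM depending on the library, and such limits cover counting error only. Libraries numbered 3 stood apart: pairs of replicates that included one had a chi-square per degree of freedom of 4.06 to 11.9, beside 2.07 to 4.93 for pairs of replicates 1 and 2. What this difference adds to single results was not tested beyond the values without those libraries given where they change a result.

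The proximal tubule label was checked first. Among 12 proximal tubule markers, LRP2, SLC22A6 and HNF4A had 0 counts in all 12 libraries, 6 others were too low to test, and PAX8, GGT1 and SLC5A2 were detected. The summed level of the 12 was 196 to 327 CPM per library, most of it PAX8. Most markers of the differentiated tubule were thus at 0 or too low to test at this depth, although the transporter SLC5A2 averaged 10.0 to 14.2 CPM per group, and the cells are called HK2 cells here. Epithelial markers, led by KRT8, summed to 2161 to 3595 CPM, and fibroblast or mesenchymal markers, led by VIM, to 833 to 1207 CPM. Immune markers summed to at most 0.518 CPM with PTPRC and CD3E at 0, and endothelial markers to at most 2.20 CPM with KDR at 0. The sum was 12.9 to 20.7 CPM for neuron markers, led by TUBB3 or MAP2 with RBFOX3 at 0, and 11.5 to 27.1 CPM for glia markers, led by MBP. Of the 5 epithelial markers tested, 0 were higher and 2 lower in long-term knockdown, KRT7 (-1.46, adjusted p = 0.00260) and EPCAM (-0.59, adjusted p = 0.0237), and 0 were higher and 3 lower in the interaction, KRT7 (-2.08, adjusted p = 0.00378), EPCAM (-1.11, adjusted p = 0.00674) and KRT18 (-0.54, adjusted p = 0.0427). In long culture with knockdown 0 were higher and 3 lower, KRT19, KRT7 and EPCAM, in long culture without knockdown KRT18 was higher and KRT19 lower, and none passed in short-term knockdown. In the order short-term nontarget, short-term knockdown, long-term nontarget and long-term knockdown, means were 35.4, 50.7, 31.0 and 20.7 CPM for EPCAM, 10.4, 16.2, 13.96 and 5.26 CPM for KRT7, 1680.3, 2154, 1997 and 1726 CPM for KRT8, 645, 807, 876 and 753 CPM for KRT18, 32.8, 32.6, 5.07 and 4.19 CPM for KRT19 and 0.137, 0.329, 0.739 and 0 CPM for CDH1, which was too low to test. Of the 3 proximal tubule markers tested, GGT1 (0.51, adjusted p = 0.0483) and PAX8 (0.33, adjusted p = 0.0490) were higher in short-term knockdown, and in long-term knockdown GGT1 was higher (0.85, adjusted p = 6.03e-04) and PAX8 lower (-0.61, adjusted p = 2.04e-04). PAX8 was also higher in long culture without knockdown and lower in long culture with knockdown and in the interaction, and SLC5A2 did not pass in any comparison. In the same order means were 162, 204, 251 and 164 CPM for PAX8 and 42.0, 60.1, 36.3 and 65.5 CPM for GGT1. Of the 4 fibroblast or mesenchymal markers tested, LUM was higher and PDGFRB lower in long-term knockdown and in the interaction, LUM was lower in both comparisons of long culture and PDGFRB in the one with knockdown, and none passed in short-term knockdown. LUM had 23.5, 23.1, 0.960 and 12.1 CPM and PDGFRB 3.99, 2.19, 7.41 and 0.658 CPM. Of the 3 neuron markers tested, MAP2 was higher and TUBB3 lower in long-term knockdown, long culture with knockdown and the interaction, with means of 7.94, 10.7, 8.64 and 3.29 CPM for TUBB3 and 6.34, 4.22, 3.98 and 8.23 CPM for MAP2, and none passed in the other comparisons. MBP, the only glia marker tested, was lower in long culture without and with knockdown, with means of 23.4, 23.9, 12.5 and 15.3 CPM, and did not pass in the others. No endothelial or immune marker could be tested. The part of these markers in the results on guidance genes was not tested.

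FLCN, the targeted gene, was at 12.7, 16.7 and 16.5 CPM (nontarget) and 5.95, 6.58 and 5.66 CPM (knockdown) in short-term libraries, and 9.92, 11.9 and 12.2 CPM (nontarget) and 6.70, 6.31 and 7.97 CPM (knockdown) in long-term libraries. Every knockdown library was below every nontarget library of the same age. FLCN fell by 1.33 on the log2 scale in short-term cells (SE 0.179, adjusted p = 1.12e-04) and by 0.70 in long-term cells (SE 0.178, adjusted p = 0.00611), with edgeR's quasi-likelihood test and Benjamini-Hochberg adjustment over the 13959 genes, as for every adjusted p below.

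Between genes, levels were compared per kb of exonic length. The 46 tested members ranged from 0.285 CPM per kb for SEMA4G to 32.1 for EPHA2, with a median of 1.69. By the mean of the 12 libraries, EPHA2 was the most abundant receptor and SEMA3C, at 30.8 CPM per kb, the most abundant ligand. EPHA2 is an Eph receptor common in epithelia and SEMA3C a secreted semaphorin. Next came the plexins PLXNB2 at 24.1 and PLXND1 at 19.0, SEMA7A at 17.5, SEMA4B at 15.3, SEMA3F at 12.9 and NRP1 at 11.4 CPM per kb. In long-term knockdown cells the order differed, with PLXNB2 at 26.3 above EPHA2 at 24.5 CPM per kb. SEMA4B at 20.70 and SEMA3C at 20.66 CPM per kb were nearly equal there. The plot of levels per length shows that the members with the widest spread between groups, EPHA3 and NTN1, lie in the lower part of this range.

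**Figure D1:**
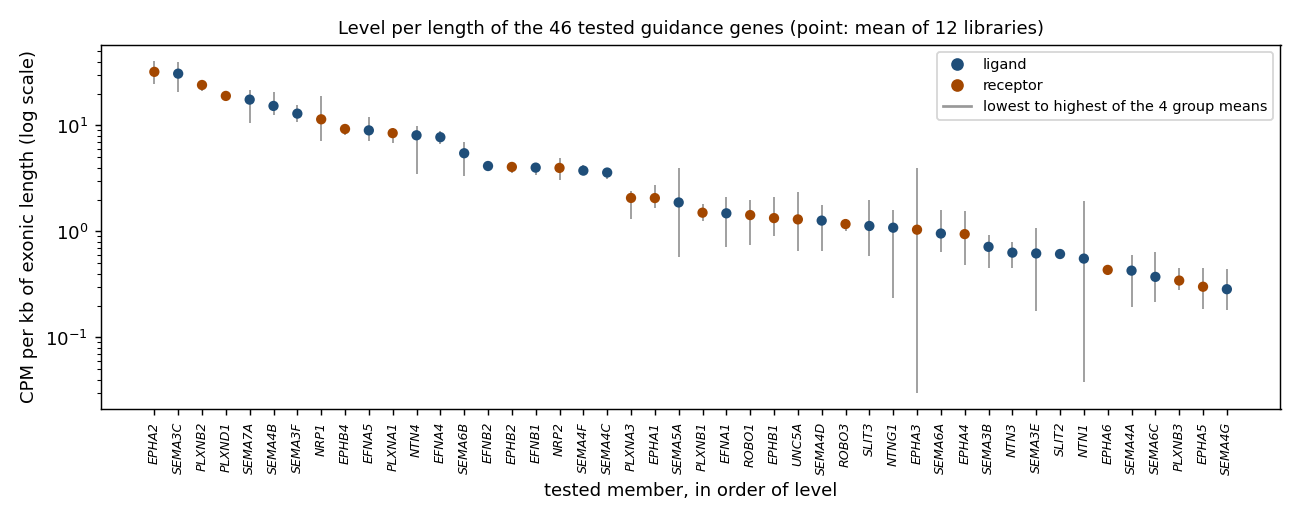
CPM per kb of exonic length (log scale) of the 46 tested guidance genes, in order of level, as the mean of 12 libraries, with a line from the lowest to the highest of the 4 group means. EPHA2 stands highest at 32.1 and SEMA4G lowest at 0.285 CPM per kb, and EPHA3 and NTN1 have the longest lines.

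The 24 members not tested were the ligands EFNA2, EFNA3, EFNB3, SEMA3A, SEMA3D, SEMA3G, SEMA5B, SEMA6D, NTN5, NTNG2 and SLIT1 and the receptors EPHA7, EPHA8, EPHA10, EPHB3, EPHB6, PLXNA2, PLXNA4, PLXNC1, UNC5B, UNC5C, UNC5D, ROBO2 and ROBO4. EPHA8 had 0 counts, 13 of them had 1 to 20 counts over the 12 libraries, and 10 had more, up to 78 for PLXNC1. Some had most of their counts in 1 group, which is given as a description only. SEMA3A, a secreted repellent, was at 1.37, 1.37 and 1.41 CPM in short-term nontarget libraries and at most 0.339 CPM in the other 9. ROBO2, a Slit receptor, was at 0.938, 0.774 and 1.04 CPM in long-term nontarget libraries and had 0 counts in the 3 long-term knockdown libraries. NTNG2, a membrane-bound netrin relative, was at 0.536, 1.55 and 1.04 CPM in long-term nontarget and 0.116, 0 and 0.170 CPM in long-term knockdown libraries. SEMA3D had 2.14, 1.70 and 0.776 CPM in long-term nontarget and 0.347, 0.440 and 0.509 CPM in long-term knockdown libraries. Most of these values lie near the limit set by 3 counts. With no filter, 6 of the 24 passed in at least 1 comparison. The shares of all genes called without the filter are given under processing. In long-term knockdown SEMA3D (-1.81, adjusted p = 0.0264), NTNG2 (-3.22, adjusted p = 0.00917), ROBO2 (-5.71, adjusted p = 8.05e-04) and EPHB3 (4.62, adjusted p = 0.0316) passed. SEMA3A passed in short-term knockdown (-3.08, adjusted p = 0.00763) and in long culture without knockdown (-3.17, adjusted p = 0.00626). PLXNC1 passed in long culture with knockdown (-1.65, adjusted p = 0.0430). These 6 had 19 to 78 counts over the 12 libraries. EPHB3 had 9 counts in long-term knockdown libraries and 0 in their nontarget counterparts. The 6 are pooled over comparisons, so their number is a description and is not set against a share of all genes. On leaving out 1 library the filter asks for fewer libraries, and SEMA3D, EFNA2 and PLXNC1 then had enough counts through the libraries in which they are highest, so a difference from the other groups was bound to be found and no test of these fits is used for them.

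Short-term knockdown against short-term nontarget compares cells with few passages. SEMA5A, EPHA4, SEMA4D and SEMA3E rose, and SEMA3B and ROBO1 fell. SEMA5A went from a mean of 8.06 ± 4.88 CPM (SD, n = 3) in nontarget to 27.8 ± 1.55 CPM in knockdown libraries. EPHA4 averaged 4.25 ± 0.304 CPM and 11.9 ± 2.18 CPM, and ROBO1 14.2 ± 2.20 CPM and 8.17 ± 1.14 CPM, in the same order. In bulk RNA, fewer cells with a transcript and less of it per cell cannot be told apart. An adjusted p below 0.05 was reached by 6 of the 46 tested members (13.0%), beside 10.3% of all genes tested. Of these, 4 were higher, beside 5.62% of all genes, and 2 were lower, beside 4.71%. The median absolute log2 fold change was 0.24 over the members tested and 0.19 over all genes, and the median with sign was 0.05 and 0.00.

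Long-term knockdown against long-term nontarget compares cells after many passages. EPHA3 rose from a mean of 0.330 ± 0.116 CPM (SD, n = 3) to 26.6 ± 6.26 CPM, the largest rise of any member in this comparison. SEMA5A, NTNG1, UNC5A, SLIT3, NRP1, EFNA1, EPHB1 and EPHA4 also rose by more than 2-fold. NTN1, SEMA3E, NTN4 and SEMA6C fell by more than 2-fold, NTN1 from 12.3 ± 4.30 CPM to 1.30 ± 1.10 CPM. Of the 46 tested members, 21 passed the test (45.7%), beside 29.5% of all genes. There were 13 higher, beside 13.7% of all genes, and 8 lower, beside 15.8%. Ligands split into 7 higher and 6 lower of 26, and receptors into 6 higher and 2 lower of 20. The median absolute log2 fold change was 0.44 over the members and 0.29 over all genes, while the medians with sign were 0.01 and 0.00. EPHA3 passed the filter on low counts only through its long-term knockdown libraries and NTN1 through its long-term nontarget libraries, so both had to differ between groups once tested.

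Long-term against short-term nontarget cells shows long culture without knockdown. NTN1 rose from 0.241 ± 0.215 CPM (SD, n = 3) to 12.3 ± 4.30 CPM, and NTNG1 fell from 14.7 ± 1.26 CPM to 2.17 ± 1.22 CPM. SEMA4D and NRP2 rose by less than 2-fold, and SEMA3C and NRP1 fell by less than 2-fold. In all, 6 members passed (13.0%), beside 7.55% of all genes, with 3 higher, beside 3.17%, and 3 lower, beside 4.38%. The higher members include NTN1, which passed the filter on low counts only through its long-term nontarget libraries and so had to differ once tested. Without short-term nontarget replicate 1, 3 members passed, beside 4.10% of all genes, and without short-term nontarget replicate 2 also 3, beside 4.52%. The median absolute log2 fold change was 0.33 over the members and 0.17 over all genes.

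Long-term against short-term knockdown cells shows long culture with knockdown. EPHA3 rose from 0.615 ± 0.226 CPM (SD, n = 3) to 26.6 ± 6.26 CPM, and ROBO1 and EPHA5 rose by more than 2-fold. SEMA3E fell from 9.07 ± 0.584 CPM to 1.49 ± 0.291 CPM, and SEMA4A, NTN4, SEMA6A and SEMA7A also fell by more than 2-fold. Here 18 members passed (39.1%), beside 26.6% of all genes, with 11 higher, beside 11.5%, and 7 lower, beside 15.2%. The higher members include EPHA3, which passed the filter on low counts only through its long-term knockdown libraries and so had to differ once tested. The median absolute log2 fold change was 0.56 over the members and 0.27 over all genes.

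The interaction tests whether the knockdown effect in long-term cells differed from that in short-term cells. It passed for 10 members (21.7%), beside 13.4% of all genes. Both shares were higher with a replicate block, as given under processing. EPHA3, NTNG1, NRP1, EPHB1, EPHA5, SEMA3B and ROBO1 had the higher long-term effect, 7 members beside 4.98% of all genes. Of these, EPHA3 could be tested only through its long-term knockdown libraries, so its call was bound to be found. SEMA3E, NTN4 and SEMA4D had the lower one, 3 members beside 8.43% of all genes. The comparisons share samples, so their values are set side by side in the plot of both knockdown effects and no overlap between them is read as a result.

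**Figure D2:**
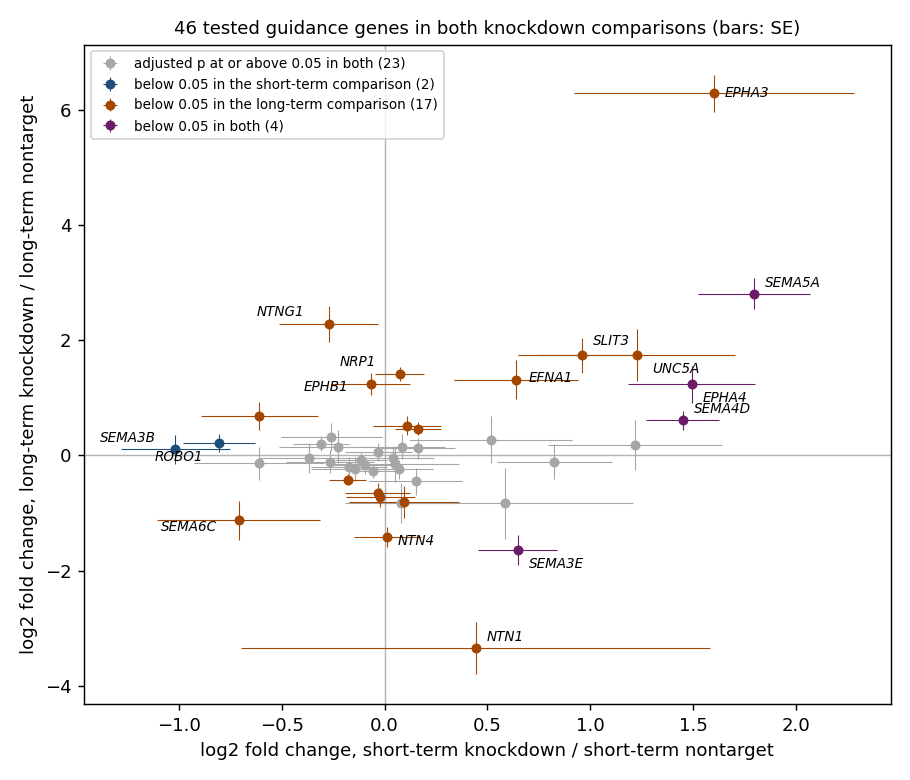
Log2 fold change of the 46 tested guidance genes in short-term (x axis) and long-term knockdown (y axis) against nontarget, with bars of 1 SE, coloured by which of the comparisons passed an adjusted p of 0.05. EPHA3 stands at 6.29 on the y axis, and SEMA3E lies above 0 on the x axis and below 0 on the y axis. The SE come from the test statistic and can be smaller than counting error at low counts, as for EPHA3.

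By family, the 6 short-term calls fell in class A Eph receptors, class 3, 4 and 5 semaphorins and Robo receptors, as the plot of families shows. The 21 long-term calls came from every family except the class B ephrins and the Robo receptors. Among the netrins proper, 2 of 3 tested were lower in long-term knockdown than in long-term nontarget cells. Of the 6 tested class A Eph receptors 3 were higher and 1 lower there, beside 13.7% of all genes higher and 15.8% lower. These counts include NTN1 and EPHA3, which could be tested only through the group where each is high. Their calls were therefore bound to be found, and the family counts are a description.

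**Figure D3:**
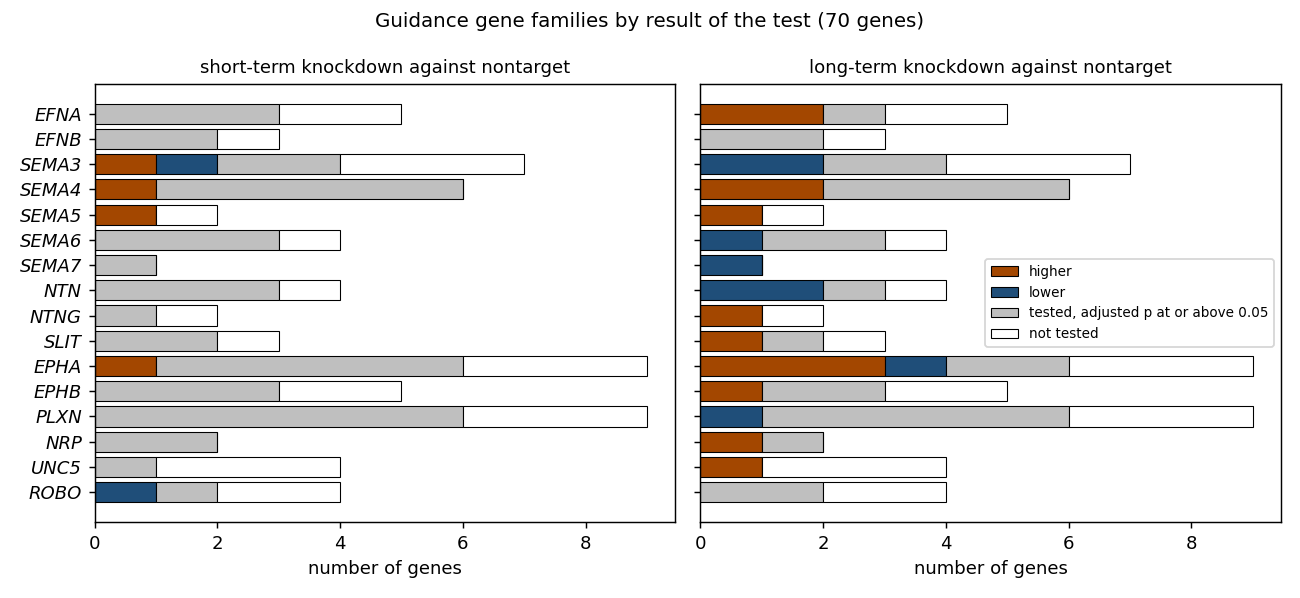
Number of guidance genes per family (70 in all) that were higher, lower, tested without passing an adjusted p of 0.05, or not tested, in short-term (left) and long-term (right) knockdown against nontarget. Short-term cells have 6 coloured genes and long-term cells 21.

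Promoter windows, from 250 bases before to 50 bases after a start site, came from RefSeq on GRCh38.p14 and were found for 59 of the 70 members. None was listed for UNC5B, NTN1, NTN3, SEMA3A, EFNB3, EPHA10, SEMA6B, NTNG2, NRP1, SEMA6A and UNC5D. Shown are the windows of SEMA5A and EPHA4, which rose by more than 2-fold in both knockdown comparisons, and of EPHA3, NTNG1, SEMA3E and NTN4, the 4 members with the largest difference between both knockdown effects among those that passed its test and have a window. The windows are chr5:9546026-9546325 on the minus strand for SEMA5A, chr2:221574153-221574452 on the minus strand for EPHA4, chr3:89107371-89107670 on the plus strand for EPHA3, chr1:107139838-107140137 on the plus strand for NTNG1, chr7:83649090-83649389 on the minus strand for SEMA3E and chr12:95791106-95791405 on the minus strand for NTN4. Where a gene has more than 1 window, the one nearest its annotated start is shown. Each reads 5′ to 3′ on the strand of its gene, and capitals mark the motifs GGGCGG or CACGTG on either strand.
SEMA5A: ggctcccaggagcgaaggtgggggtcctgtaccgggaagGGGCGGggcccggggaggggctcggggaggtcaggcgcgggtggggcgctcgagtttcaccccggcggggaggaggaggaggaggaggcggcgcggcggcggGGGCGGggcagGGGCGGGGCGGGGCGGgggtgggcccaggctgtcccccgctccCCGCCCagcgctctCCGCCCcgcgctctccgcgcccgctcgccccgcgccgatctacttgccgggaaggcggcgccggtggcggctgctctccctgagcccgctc
EPHA4: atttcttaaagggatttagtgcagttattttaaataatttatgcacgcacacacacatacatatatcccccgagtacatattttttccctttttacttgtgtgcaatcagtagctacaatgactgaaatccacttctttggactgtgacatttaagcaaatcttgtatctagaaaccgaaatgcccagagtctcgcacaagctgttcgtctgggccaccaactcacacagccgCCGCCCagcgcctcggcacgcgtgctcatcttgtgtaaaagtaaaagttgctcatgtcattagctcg
EPHA3: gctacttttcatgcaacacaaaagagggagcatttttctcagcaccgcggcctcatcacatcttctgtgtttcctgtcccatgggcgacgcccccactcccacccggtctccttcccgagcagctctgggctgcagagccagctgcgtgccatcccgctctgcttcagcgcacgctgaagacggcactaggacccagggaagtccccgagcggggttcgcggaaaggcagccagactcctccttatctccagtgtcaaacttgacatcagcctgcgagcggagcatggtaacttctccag
NTNG1: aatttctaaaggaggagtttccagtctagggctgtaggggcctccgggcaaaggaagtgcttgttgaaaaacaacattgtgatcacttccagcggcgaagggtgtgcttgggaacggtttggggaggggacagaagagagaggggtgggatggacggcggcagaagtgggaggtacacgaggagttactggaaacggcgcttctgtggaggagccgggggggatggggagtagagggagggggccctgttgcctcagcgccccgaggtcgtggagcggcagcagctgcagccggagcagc
SEMA3E: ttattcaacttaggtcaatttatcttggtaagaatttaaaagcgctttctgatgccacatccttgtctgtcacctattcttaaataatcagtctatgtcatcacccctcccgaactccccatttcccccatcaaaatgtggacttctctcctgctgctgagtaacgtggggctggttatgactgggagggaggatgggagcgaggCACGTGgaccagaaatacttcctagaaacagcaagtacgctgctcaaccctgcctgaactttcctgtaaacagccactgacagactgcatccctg
NTN4: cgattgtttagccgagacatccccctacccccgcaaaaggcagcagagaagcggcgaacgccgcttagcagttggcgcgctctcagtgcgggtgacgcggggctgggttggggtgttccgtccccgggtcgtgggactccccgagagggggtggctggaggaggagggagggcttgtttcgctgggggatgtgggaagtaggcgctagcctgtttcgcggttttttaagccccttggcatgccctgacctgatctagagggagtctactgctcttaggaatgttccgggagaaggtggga

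The SEMA5A window, with 81.0% G and C and 39 CpG pairs, held 7 copies of GGGCGG, some of them overlapping by 1 base, between 211 and 41 bases before the start. EPHA4 had 1 copy on the opposite strand 17 bases before the start, in a window with 43.0% G and C. SEMA3E had a single CACGTG 45 bases before the start, and 47.3% G and C. The windows of EPHA3 (59.7% G and C), NTNG1 (61.0%) and NTN4 (62.3%) held none of the 4 motifs searched on both strands: the E-box motif CACGTG, the AP-1 motif TGANTCA, the GC box GGGCGG and the TATA box TATAAA. Over all 35116 windows of the table, GGGCGG was found in 45.0%, CACGTG in 7.26%, TGANTCA in 7.71% and TATAAA in 11.5%. Of the 59 members, 46 (78.0%) held GGGCGG, 4 held CACGTG (SEMA3E, SEMA4D, SEMA6D and EPHA8), 1 held TATAAA (EFNB2) and 0 held TGANTCA. Members' windows had a median of 66.7% G and C and 22 CpG pairs, beside 58.7% and 14 over all windows. A match is a description of the letters and says nothing on binding.

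Among the ephrin ligands, 3 class A and 2 class B genes were tested. EFNA1 (ENSG00000169242.11, chr1:155127460-155134857, plus strand), a membrane-anchored ligand of EPHA2 and other class A receptors, was at 2.19, 4.40 and 3.77 CPM (nontarget) and 5.57, 4.83 and 5.66 CPM (knockdown) in short-term libraries, and 1.21, 2.94 and 1.29 CPM (nontarget) and 4.28, 3.82 and 5.26 CPM (knockdown) in long-term libraries. The 3 long-term knockdown libraries were all above the 3 long-term nontarget libraries, and so were the short-term ones above their nontarget libraries. EFNA1 rose 2.48-fold in long-term cells (log2 fold change 1.31, SE 0.339, adjusted p = 0.00689), while the short-term change did not pass (0.64, adjusted p = 0.214). In long culture without knockdown EFNA1 did not pass (-0.94, adjusted p = 0.128), but did without long-term nontarget replicate 2 (-1.44, adjusted p = 0.0327). Without replicate 3 of every group the long-term value was 1.01, with an adjusted p of 0.0543. EFNA5, another class A ephrin and a ligand of EPHA3, rose in long-term knockdown against long-term nontarget (0.46, adjusted p = 0.00398) and against short-term knockdown cells (0.57, adjusted p = 8.95e-04). In both, the 3 libraries of 70.4, 72.9 and 61.7 CPM lay above all 3 of the other group. EFNA5 made up 42.8 ± 3.21% (SD, n = 3) of the class A ephrin level per length in short-term nontarget and 53.5 ± 4.89% in long-term knockdown cells. EFNA4, EFNB1 and EFNB2 did not pass in any of the 5 comparisons.

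Class 3 semaphorins are secreted. SEMA3B (ENSG00000012171.19, chr3:50267558-50277546, plus strand), which signals through neuropilins, was at 5.19, 4.40 and 6.28 CPM (nontarget) and 2.53, 2.49 and 2.83 CPM (knockdown) in short-term libraries, and 3.62, 3.41 and 5.30 CPM (nontarget) and 3.70, 4.40 and 5.43 CPM (knockdown) in long-term libraries. Its 3 short-term knockdown libraries were the lowest of all 12, while both long-term groups overlapped each other. SEMA3B fell by 1.02 on the log2 scale in short-term knockdown (SE 0.265, adjusted p = 0.0191), and the interaction was 1.12 (SE 0.364, adjusted p = 0.04996). The short-term call was lost without nontarget replicate 1 (adjusted p = 0.0568), nontarget replicate 3 (0.0880), knockdown replicate 1 (0.0688) or knockdown replicate 2 (0.0621). The interaction was lost on leaving out any of 9 of the 12 libraries (short-term nontarget 1 or 3, short-term knockdown 1, 2 or 3, long-term nontarget 1 or 2, long-term knockdown 2 or 3), with adjusted p from 0.0598 to 0.119, and with RLE factors (0.05), DESeq2 (0.0835), no filter (0.0765) and replicate 3 of every group left out (0.0792). From short-term to long-term knockdown cells SEMA3B rose (0.77, adjusted p = 0.0432), a call lost on leaving out any of 7 libraries (short-term nontarget 1, short-term knockdown 1, 2 or 3, long-term nontarget 2, long-term knockdown 2 or 3), with adjusted p up to 0.126, and with DESeq2 (0.0768), no filter (0.0743), fits of 2 groups only (0.0657) and replicate 3 of every group left out (0.113). SEMA3B shares exonic bases with the microRNA gene MIR6872.

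SEMA3E (ENSG00000170381.12), which binds PLXND1 without a neuropilin and restrains vessel growth, was at 6.01, 4.71 and 6.60 CPM (nontarget) and 8.86, 8.63 and 9.73 CPM (knockdown) in short-term libraries, and 4.82, 4.65 and 4.27 CPM (nontarget) and 1.16, 1.61 and 1.70 CPM (knockdown) in long-term libraries. It was highest in the 3 short-term knockdown libraries and lowest in the 3 long-term knockdown libraries, with no overlap of either with its nontarget group. SEMA3E fell 3.11-fold in long-term knockdown (log2 fold change -1.64, SE 0.258, adjusted p = 1.12e-04). Against short-term knockdown cells it fell 6.14-fold (log2 fold change -2.62, SE 0.239, adjusted p = 3.07e-07). In short-term knockdown it rose (log2 fold change 0.65, SE 0.194, adjusted p = 0.0407), but this call was lost on leaving out any of 7 libraries (adjusted p 0.0518 to 0.183), all 6 of the comparison and long-term nontarget 2, and with DESeq2 (0.0888), no filter (0.101) and replicate 3 of every group left out (0.0547). The interaction was -2.28 (SE 0.323, adjusted p = 8.94e-05). For its 40 nearest tested genes the median was 0.31 in the long-term comparison, and the part of this neighbourhood in the result was not tested. PLXND1, its receptor, averaged 178 ± 13.7 CPM (SD, n = 3) in short-term nontarget and 198 ± 31.2 CPM in long-term knockdown libraries and did not pass in any comparison. SEMA3C, a ligand of NRP1 and NRP2, averaged 249.9 ± 20.3 CPM, 221 ± 2.65 CPM, 173 ± 13.1 CPM and 129 ± 3.54 CPM in the order short-term nontarget, short-term knockdown, long-term nontarget and long-term knockdown. It fell in long culture without knockdown (-0.53, adjusted p = 0.00131), in long culture with knockdown (-0.77, adjusted p = 7.90e-06) and in long-term knockdown (-0.42, adjusted p = 0.00215), with no overlap of libraries in these 3. The share of SEMA3C in the class 3 level per length was 73.2 ± 0.777% in short-term nontarget and 55.5 ± 5.92% in long-term knockdown cells. SEMA3F, a ligand of NRP2, did not pass in the 5 comparisons, but did under some alternatives. In long culture with knockdown it passed without short-term knockdown replicate 3 (0.89, adjusted p = 0.00516) and with no filter (0.0401), a replicate block (0.00109) and replicate 3 of every group left out (1.28e-04). Its interaction passed without short-term knockdown replicate 3 (0.91, adjusted p = 0.0428) and with a replicate block (0.0127) and replicate 3 of every group left out (2.94e-04). In long-term knockdown SEMA3F passed with a replicate block (0.0383) and replicate 3 of every group left out (0.0122), and in short-term knockdown with replicate 3 of every group left out (0.00283).

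Class 4 semaphorins span the membrane, and all 6 were tested. SEMA4D (ENSG00000187764.11, chr9:89360787-89498130, minus strand), a ligand of PLXNB1, was at 9.43, 7.44 and 10.7 CPM (nontarget) and 23.5, 22.5 and 29.6 CPM (knockdown) in short-term libraries, and 12.9, 17.0 and 14.5 CPM (nontarget) and 19.4, 25.5 and 22.7 CPM (knockdown) in long-term libraries. All 3 short-term knockdown libraries were above 20 CPM and all 3 of their nontarget libraries at most 10.7 CPM, and the long-term groups did not overlap either. SEMA4D rose 2.73-fold in short-term knockdown (log2 fold change 1.45, SE 0.178, adjusted p = 4.78e-05). In long-term knockdown it rose 1.52-fold (log2 fold change 0.61, SE 0.169, adjusted p = 0.0111), a call lost without long-term knockdown replicate 2 (adjusted p = 0.0666). The interaction was -0.84 (adjusted p = 0.0296), lost on leaving out any of 5 libraries (up to 0.0943; short-term nontarget 1 or 2, short-term knockdown 3, long-term nontarget 2, long-term knockdown 1). SEMA4D also rose in long culture without knockdown (0.68, adjusted p = 0.0292), a call lost on leaving out any of 4 libraries (up to 0.153; short-term nontarget 1 or 2, long-term nontarget 2 or 3). PLXNB1 averaged 13.5 ± 0.432 CPM (SD, n = 3), 12.3 ± 1.72 CPM, 17.7 ± 5.60 CPM and 15.1 ± 3.39 CPM in the group order used above and did not pass in any comparison.

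SEMA4A (ENSG00000196189.12, chr1:156147366-156177752, plus strand), a membrane semaphorin best known from immune cells and the retina, was at 4.24, 3.04 and 4.24 CPM (nontarget) and 3.29, 4.09 and 4.96 CPM (knockdown) in short-term libraries, and 1.88, 2.32 and 2.98 CPM (nontarget) and 1.62, 1.47 and 0.848 CPM (knockdown) in long-term libraries. Its 3 long-term knockdown libraries were the lowest of all 12. SEMA4A fell 2.99-fold from short-term to long-term knockdown cells (log2 fold change -1.58, SE 0.319, adjusted p = 0.00128) and did not pass in long-term knockdown against nontarget (-0.82, adjusted p = 0.0815). SEMA4B rose in long-term knockdown (0.52, adjusted p = 0.0236), although 1 long-term nontarget library at 129 CPM lay above 2 knockdown libraries. That call was lost without long-term nontarget replicate 1 (0.106), nontarget replicate 2 (0.1003) or knockdown replicate 3, where its value was 0.34 (0.102), and with fits of 2 groups only (0.0526). From short-term to long-term knockdown cells SEMA4B rose too (0.61, adjusted p = 0.00999), a call lost without short-term knockdown replicate 1 (0.0506). The interaction of SEMA4B passed with replicate 3 of every group left out (0.00674), beside 0.286 in the main fit. SEMA4C, SEMA4F and SEMA4G did not pass in any comparison, but SEMA4G did in short-term knockdown without short-term nontarget replicate 1 (1.87, adjusted p = 0.0344), and the interaction of SEMA4F did with a replicate block (0.0366).

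SEMA5A (ENSG00000112902.11, chr5:9035026-9546075, minus strand), a membrane semaphorin with thrombospondin repeats whose promoter is shown above, was at 6.56, 4.10 and 13.5 CPM (nontarget) and 28.8, 28.5 and 26.0 CPM (knockdown) in short-term libraries, and 6.16, 7.74 and 6.86 CPM (nontarget) and 56.9, 47.2 and 40.4 CPM (knockdown) in long-term libraries. Every knockdown library was above every nontarget library, of which short-term nontarget replicate 3 was the highest. SEMA5A rose 3.48-fold in short-term cells (log2 fold change 1.80, SE 0.271, adjusted p = 4.39e-04) and 6.99-fold in long-term cells (log2 fold change 2.80, SE 0.269, adjusted p = 1.01e-06). Without replicate 3 of every group the short-term value was 2.41 (adjusted p = 8.21e-09). The interaction was 1.01 and did not pass (adjusted p = 0.102), but it was 1.32 and passed without short-term nontarget replicate 2 (0.0132), and it passed with no filter (0.00176). From short-term to long-term knockdown cells SEMA5A rose (0.80, adjusted p = 0.0190), a call lost without long-term knockdown replicate 1 (0.0946). The 40 nearest tested genes had medians of 0.41 (short-term) and 0.20 (long-term), whose part in the result was not tested. SEMA5A shares exonic bases with the antisense gene AC021088.1, and counts of overlapping genes on either strand cannot be told apart because the strand setting is not stated.

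SEMA6A (ENSG00000092421.16, chr5:116443616-116574934, minus strand), a membrane semaphorin that binds class A plexins, was at 8.34, 7.90 and 13.4 CPM (nontarget) and 15.6, 19.4 and 17.3 CPM (knockdown) in short-term libraries, and 4.02, 6.50 and 12.2 CPM (nontarget) and 6.93, 7.63 and 6.61 CPM (knockdown) in long-term libraries. Short-term knockdown libraries were the highest 3 of the 12. SEMA6A fell 2.46-fold from short-term to long-term knockdown cells (log2 fold change -1.30, SE 0.288, adjusted p = 0.00299), and the short-term knockdown value did not pass (0.83, adjusted p = 0.0729). The short-term value passed without short-term nontarget replicate 3 (1.10, adjusted p = 0.0389) and without long-term nontarget replicate 1 (0.0274) or 3 (0.0139), and with no filter (0.00111), a replicate block (0.00864), fits of 2 groups only (0.0151) and replicate 3 of every group left out (5.24e-04). Its interaction (-0.93, adjusted p = 0.163) passed without long-term nontarget replicate 1 (0.0281) and with no filter (0.0254). It shares exonic bases with SEMA6A-AS1 and SEMA6A-AS2. SEMA6C fell in long-term knockdown (-1.13, adjusted p = 0.0171), from 4.15, 2.79 and 4.14 to 1.62, 1.47 and 2.04 CPM, without overlap. This call was lost without long-term nontarget replicate 1 (0.0585) or 3 (0.0582) and without knockdown replicate 1 (0.0624) or 2 (0.0603). SEMA6B rose from short-term to long-term knockdown cells (0.97, adjusted p = 0.0299), a call lost on leaving out any of 4 libraries (up to 0.118; short-term knockdown 1 or 2, long-term knockdown 2 or 3). In short-term knockdown SEMA6B (-0.61, adjusted p = 0.269) passed without short-term knockdown replicate 3 (0.0450) and with a replicate block (0.00474) and replicate 3 of every group left out (0.00425), in long culture without knockdown (0.50, adjusted p = 0.399) with a replicate block (0.0260), and in the interaction (0.47, adjusted p = 0.539) with replicate 3 of every group left out (0.0148).

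SEMA7A (ENSG00000138623.9), a lipid-anchored semaphorin that binds integrins and PLXNC1, was at 90.6, 81.2 and 77.0 CPM (nontarget) and 76.7, 73.7 and 93.3 CPM (knockdown) in short-term libraries, and 59.8, 55.7 and 72.1 CPM (nontarget) and 37.4, 30.1 and 52.4 CPM (knockdown) in long-term libraries. The 3 long-term knockdown libraries were the lowest of the 12, and the 2 short-term groups overlapped. SEMA7A fell 2.04-fold from short-term to long-term knockdown cells (log2 fold change -1.03, SE 0.166, adjusted p = 1.77e-04) and 1.57-fold in long-term knockdown against nontarget (log2 fold change -0.65, SE 0.166, adjusted p = 0.00627). In long culture without knockdown it did not pass (-0.41, adjusted p = 0.155), but did without long-term knockdown replicate 3 (0.0497) and with no filter (0.0361), a replicate block (0.0221), fits of 2 groups only (0.0386) and replicate 3 of every group left out (8.11e-04). The interaction did not pass (-0.62, adjusted p = 0.0878), but did without long-term knockdown replicate 3 (-0.85, adjusted p = 0.00484) and with no filter (0.0138), a replicate block (0.0143) and replicate 3 of every group left out (0.0153). Its receptor PLXNC1 was not tested, with group means of 1.30 to 1.48 CPM in short-term and 0.455 to 0.499 CPM in long-term cells.

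Among the netrins, NTN1 and NTNG1 moved in opposite directions in long culture without knockdown. NTN1 (ENSG00000065320.8, chr17:9021542-9244000, plus strand), the secreted netrin that attracts through DCC and repels through UNC5 receptors, was at 0.410, 0 and 0.314 CPM (nontarget) and 0.506, 0.439 and 0 CPM (knockdown) in short-term libraries, and 8.71, 11.1 and 17.1 CPM (nontarget) and 0.462, 0.880 and 2.54 CPM (knockdown) in long-term libraries. It was high in the 3 long-term nontarget libraries and near the limit of detection in the 6 short-term libraries, where at most 4 counts were found. Long-term knockdown libraries lay below all 3 long-term nontarget libraries. Since NTN1 had enough counts for a test only because of the long-term nontarget libraries, a difference between them and other groups was bound to be found, and the test values are given as a description. NTN1 rose by 5.55 on the log2 scale in long culture without knockdown (SE 0.597, adjusted p = 1.89e-05), and without short-term nontarget replicate 1 the value was 6.16 (2.76e-04). That SE comes from the test statistic and is smaller than counting error alone, at 5 counts over the short-term nontarget libraries. In long-term knockdown NTN1 fell 10.2-fold (log2 fold change -3.35, SE 0.450, adjusted p = 2.76e-05), and without long-term knockdown replicate 3 the value was -4.21 (2.18e-06). The interaction did not pass (-3.79, adjusted p = 0.0717), but did without short-term knockdown replicate 3 (-4.25, adjusted p = 0.0352) or long-term knockdown replicate 3 (-4.65, adjusted p = 0.0123), and with DESeq2 (0.00423), no filter (0.00190), a replicate block (0.0198) and replicate 3 of every group left out (0.00275). Long culture with knockdown gave 1.75 (adjusted p = 0.129), which passed with DESeq2 (0.0439) and no filter (0.0220). DCC, its attractive receptor, had 0 counts in all 12 libraries. NTN1 made up 15.9 ± 3.94% (SD, n = 3) of the netrin level per length in long-term nontarget and 0.351 ± 0.312% in short-term nontarget cells.

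NTN4 (ENSG00000074527.11, chr12:95657807-95791152, minus strand), a netrin of basement membranes that binds laminins, was at 43.2, 36.8 and 41.9 CPM (nontarget) and 33.9, 38.6 and 51.1 CPM (knockdown) in short-term libraries, and 39.4, 36.5 and 39.5 CPM (nontarget) and 15.3, 10.4 and 17.5 CPM (knockdown) in long-term libraries. The 3 long-term knockdown libraries were at most 17.5 CPM and the other 9 at least 33.9 CPM. NTN4 fell 2.68-fold in long-term knockdown (log2 fold change -1.42, SE 0.177, adjusted p = 9.15e-06) and 2.86-fold from short-term to long-term knockdown cells (log2 fold change -1.51, SE 0.177, adjusted p = 5.57e-06). The interaction was -1.44 (SE 0.241, adjusted p = 4.79e-04). The summed netrin level was 10.3 ± 0.827 CPM per kb (nontarget; SD, n = 3) and 10.7 ± 2.61 (knockdown) in short-term cells and 12 ± 1.48 (nontarget) and 4.11 ± 1.25 (knockdown) in long-term cells, with NTN4 the most abundant netrin in each. NTN3 was tested and did not pass in any comparison.

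NTNG1 (ENSG00000162631.18, chr1:107140007-107483458, plus strand), a lipid-anchored netrin relative that binds a leucine-rich partner on other cells rather than DCC, was at 15.9, 14.9 and 13.4 CPM (nontarget) and 12.3, 13.9 and 10.3 CPM (knockdown) in short-term libraries, and 3.48, 1.08 and 1.94 CPM (nontarget) and 12.9, 12.3 and 6.78 CPM (knockdown) in long-term libraries. It was low in the long-term nontarget libraries, and the other 9 libraries were all above those 3. NTNG1 fell 6.62-fold in long culture without knockdown (log2 fold change -2.73, SE 0.303, adjusted p = 1.84e-05) and was 4.88-fold higher in long-term knockdown than in long-term nontarget cells (log2 fold change 2.29, SE 0.310, adjusted p = 2.31e-05). Long culture with knockdown gave -0.17, which did not pass (adjusted p = 0.662), and the interaction was 2.56 (SE 0.396, adjusted p = 2.23e-04).

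SLIT3 (ENSG00000184347.14, chr5:168661733-169301129, minus strand), a secreted ligand of Robo receptors, was at 8.06, 7.75 and 12.1 CPM (nontarget) and 10.2, 18.0 and 26.7 CPM (knockdown) in short-term libraries, and 6.70, 6.35 and 12.2 CPM (nontarget) and 28.0, 26.0 and 30.9 CPM (knockdown) in long-term libraries. Long-term knockdown libraries were all above the long-term nontarget libraries, while the short-term groups overlapped, with 1 knockdown library at 10.2 CPM below 1 nontarget library at 12.1 CPM. SLIT3 rose 3.33-fold in long-term knockdown (log2 fold change 1.73, SE 0.300, adjusted p = 4.04e-04) and did not pass in short-term knockdown (0.96, adjusted p = 0.0633), but did without short-term knockdown replicate 1 (1.26, adjusted p = 0.00747) or long-term nontarget replicate 3 (0.0347), and with DESeq2 (0.0175), no filter (4.23e-05), a replicate block (0.00221) and replicate 3 of every group left out (0.0144). In long culture with knockdown (0.65, adjusted p = 0.104) it passed without short-term knockdown replicate 3 (0.00791) and with no filter (0.00182), a replicate block (0.00323) and replicate 3 of every group left out (3.34e-04), and the interaction (0.78, adjusted p = 0.280) passed with no filter (0.0438), a replicate block (0.0331) and replicate 3 of every group left out (0.00796). The medians of its 40 nearest tested genes were 0.57 (long-term) and 0.52 (short-term), and their part was not tested. The share of SLIT3 in the Slit level per length was 47.6 ± 11.5% (SD, n = 3) in long-term nontarget cells and 78.2 ± 3.85% in their knockdown counterparts. SLIT2 did not pass in any comparison. SLIT3 shares exonic bases with the antisense genes AC011365.1 and AC011365.2 and with RF00019.

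**Figure D4:**
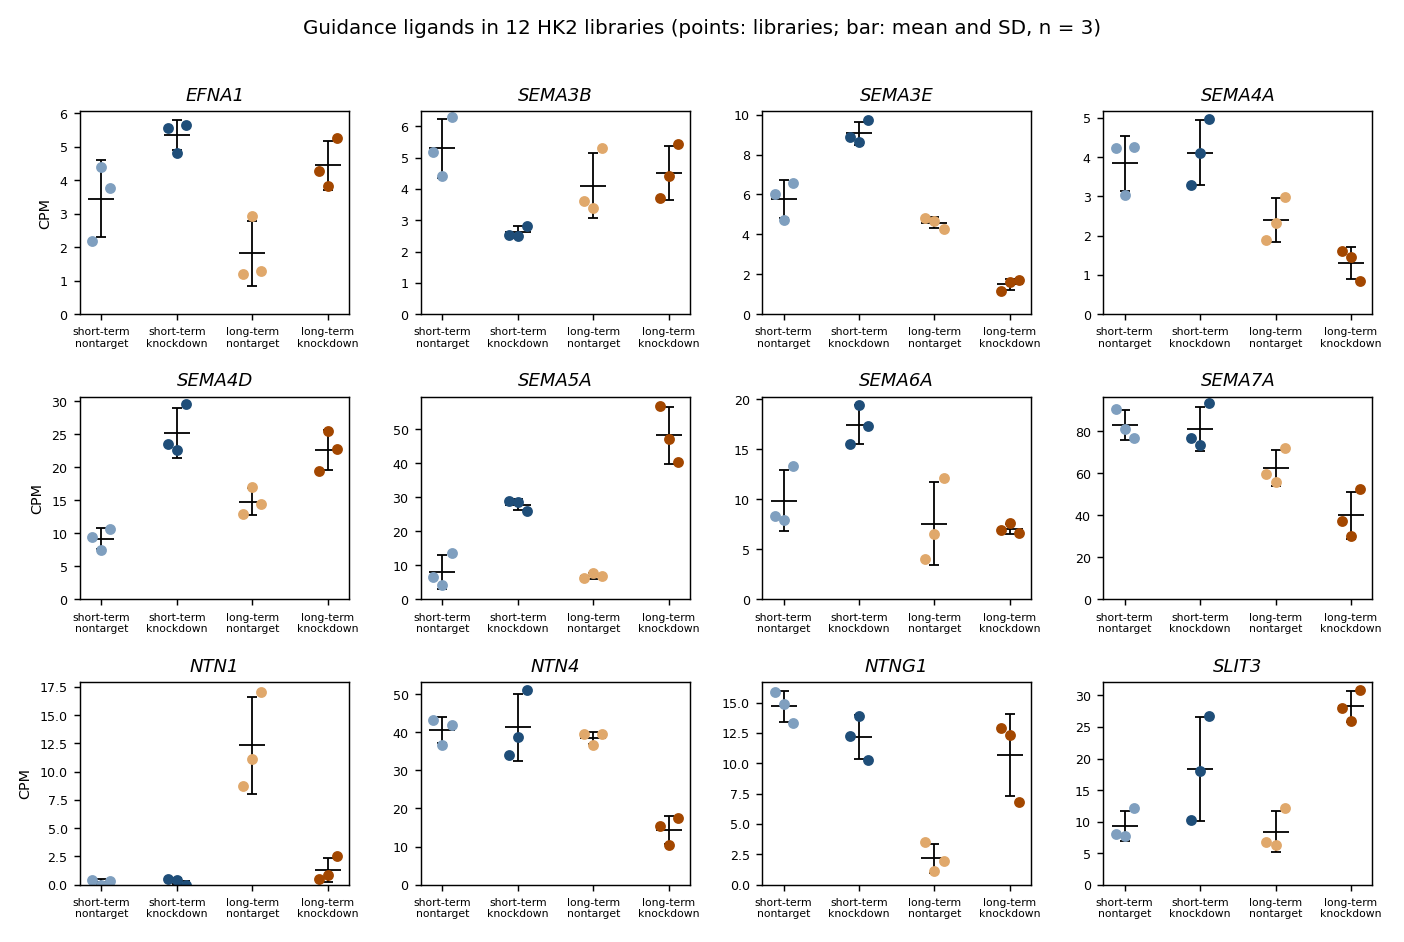
CPM in each of the 12 libraries for the 12 guidance ligands described in full, with bars of the group mean and SD (n = 3). SEMA5A is higher in every knockdown library than in every nontarget library, NTN1 is high in long-term nontarget libraries, and NTN4 and SEMA3E are lowest in long-term knockdown libraries.

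Of the class A Eph receptors, EPHA3 had the widest range. EPHA3 (ENSG00000044524.10, chr3:89107524-89482134, plus strand), a receptor of EFNA5, was at 0.137, 0.152 and 0.314 CPM (nontarget) and 0.759, 0.731 and 0.354 CPM (knockdown) in short-term libraries, and 0.268, 0.465 and 0.259 CPM (nontarget) and 28.3, 31.8 and 19.7 CPM (knockdown) in long-term libraries. The 9 other libraries held at most 6 counts each, and the 3 long-term knockdown libraries stood far above them. EPHA3 had enough counts for a test only because of the 3 long-term knockdown libraries, so a difference between them and other groups was bound to be found, and the test values are given as a description. EPHA3 rose 78.2-fold in long-term knockdown (log2 fold change 6.29, SE 0.320, adjusted p = 2.69e-10) and 40.9-fold from short-term to long-term knockdown cells (log2 fold change 5.35, SE 0.291, adjusted p = 6.54e-10). Both SE come from the test statistic and are smaller than counting error alone, at 7 long-term nontarget and 13 short-term knockdown counts. In short-term knockdown EPHA3 did not pass (1.60, adjusted p = 0.161), at 4 counts over the 3 nontarget and 13 over the 3 knockdown libraries. The interaction was 4.69 (SE 1.11, adjusted p = 0.00783). It was 4.28 without short-term nontarget replicate 3 (adjusted p = 0.0764) and 4.08 without replicate 3 of every group (0.0617), where it no longer passed. The 40 nearest tested genes had a median of 0.13 in the long-term comparison, whose part was not tested. Within the class A Eph receptors, EPHA3 took 0.117 ± 0.0486% (SD, n = 3) of the level per length in long-term nontarget cells and 12.6 ± 3.77% in their knockdown counterparts.

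EPHA2, a receptor of EFNA1, was at 134, 129.7 and 135 CPM (nontarget) and 114, 109.8 and 169 CPM (knockdown) in short-term libraries, and 144, 156 and 204 CPM (nontarget) and 86.6, 94.9 and 124 CPM (knockdown) in long-term libraries. It was lower in every long-term knockdown library than in every long-term nontarget library and fell there (-0.73, adjusted p = 0.00380), while the interaction of -0.71 did not pass (adjusted p = 0.0622). The interaction passed without long-term nontarget replicate 1 (0.0425), short-term knockdown replicate 2 (0.0316) or long-term knockdown replicate 3 (0.0136), and with DESeq2 (0.0386), no filter (8.16e-04), a replicate block (0.00158) and replicate 3 of every group left out (0.00930). In long culture with knockdown EPHA2 (-0.37, adjusted p = 0.129) passed without long-term knockdown replicate 3 (0.0290) and with no filter (0.0218), a replicate block (0.00930) and replicate 3 of every group left out (0.0128), and in long culture without knockdown (0.34, adjusted p = 0.285) with a replicate block (0.0403). EPHA2 was the most abundant class A Eph receptor in each group, with 92.9 ± 1.53% (SD, n = 3) of the class level per length in long-term nontarget cells and 75.4 ± 6.99% in their knockdown counterparts.

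EPHA4 (ENSG00000116106.11, chr2:221418027-221574202, minus strand), which binds ephrins of both classes, was at 4.24, 3.95 and 4.56 CPM (nontarget) and 13.3, 13.0 and 9.38 CPM (knockdown) in short-term libraries, and 4.69, 1.24 and 5.05 CPM (nontarget) and 9.24, 10.7 and 6.28 CPM (knockdown) in long-term libraries. Each of the 6 knockdown libraries exceeded each nontarget library, whose highest value was 5.05 CPM. EPHA4 rose 2.81-fold in short-term (log2 fold change 1.49, SE 0.310, adjusted p = 0.00439) and 2.35-fold in long-term knockdown (log2 fold change 1.23, SE 0.321, adjusted p = 0.00739), and the interaction did not pass (-0.26, adjusted p = 0.773). The 40 nearest tested genes had medians of 0.46 (short-term) and -0.03 (long-term), and chromosome 2 as a whole had 0.31 and 0.19, whose part was not tested. EPHA4 shares exonic bases with the antisense gene AC079834.2. EPHA5 (ENSG00000145242.13, chr4:65319563-65670495, minus strand), a class A receptor known mainly from neurons, was at 2.05, 3.34 and 2.99 CPM (nontarget) and 1.77, 1.90 and 1.77 CPM (knockdown) in short-term libraries, and 2.81, 2.79 and 2.72 CPM (nontarget) and 4.85, 3.96 and 4.58 CPM (knockdown) in long-term libraries. Long-term knockdown libraries were the 3 highest and short-term knockdown libraries the 3 lowest of the 12. EPHA5 rose from short-term to long-term knockdown cells by 1.29 on the log2 scale (SE 0.264, adjusted p = 0.00136). In long-term knockdown against nontarget it rose (0.69, adjusted p = 0.0413), a call lost on leaving out any of 7 libraries (up to 0.146; short-term knockdown 1, long-term nontarget 1, 2 or 3, long-term knockdown 1, 2 or 3) and with DESeq2 (0.1197), no filter (0.133), fits of 2 groups only (0.0623) and replicate 3 of every group left out (0.1245). The interaction of 1.30 (adjusted p = 0.0279) was lost on leaving out any of 7 of the 12 libraries (up to 0.0874; short-term nontarget 2 or 3, short-term knockdown 1 or 3, long-term nontarget 2 or 3, long-term knockdown 1) and with DESeq2 (0.0747), no filter (0.0774) and replicate 3 of every group left out (0.116). EPHA5 shares exonic bases with EPHA5-AS1. EPHA1 and EPHA6 did not pass in any comparison, but EPHA1 did in long culture without knockdown with no filter (0.0332) and a replicate block (0.0291).

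EPHB1 (ENSG00000154928.16), a receptor of class B ephrins, was at 10.5, 7.59 and 6.76 CPM (nontarget) and 8.86, 7.31 and 7.61 CPM (knockdown) in short-term libraries, and 6.16, 6.35 and 6.21 CPM (nontarget) and 13.98, 16.7 and 13.6 CPM (knockdown) in long-term libraries. The 3 long-term knockdown libraries were above all others, and the long-term nontarget libraries were the 3 lowest. EPHB1 rose 2.36-fold in long-term knockdown (log2 fold change 1.24, SE 0.186, adjusted p = 6.43e-05) and 1.85-fold from short-term to long-term knockdown cells (log2 fold change 0.89, SE 0.181, adjusted p = 0.00136). The interaction was 1.31 (SE 0.268, adjusted p = 0.00272). EPHB2 did not pass in any comparison, but did in long-term knockdown with a replicate block (0.0487). EPHB4, the most abundant class B receptor in each group with 59.7 ± 1.01% (SD, n = 3) of the class level per length in short-term nontarget and 63.4 ± 4.46% in long-term knockdown cells, did not pass in any comparison. EPHB1 shares exonic bases with KY, a gene on the opposite strand.

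NRP1 (ENSG00000099250.17, chr10:33177492-33336262, minus strand), a co-receptor of class 3 semaphorins and of vascular endothelial growth factor, was at 116, 97.7 and 114 CPM (nontarget) and 113, 115 and 118 CPM (knockdown) in short-term libraries, and 85.6, 89.5 and 72.1 CPM (nontarget) and 245, 233 and 182 CPM (knockdown) in long-term libraries. Long-term knockdown libraries were the 3 highest by a wide margin and long-term nontarget libraries the 3 lowest. NRP1 rose 2.68-fold in long-term knockdown (log2 fold change 1.42, SE 0.121, adjusted p = 1.35e-07) and 1.92-fold from short-term to long-term knockdown cells (log2 fold change 0.94, SE 0.1195, adjusted p = 1.46e-05). The interaction was 1.35 (SE 0.170, adjusted p = 2.79e-05). In long culture without knockdown NRP1 fell (-0.41, adjusted p = 0.0475), a call lost on leaving out any of 9 libraries (up to 0.192), all 6 of the comparison and short-term knockdown 1 or 2, long-term knockdown 2, and with RLE factors (0.0508) and the filter at 10 CPM (0.0537). NRP2, the second neuropilin, rose in long culture without (0.56, adjusted p = 0.00845) and with knockdown (0.60, adjusted p = 0.00159), the first of which was lost without short-term nontarget replicate 1 (0.0648) or 2 (0.0620). The summed neuropilin level was 12.04 ± 0.373 CPM per kb (SD, n = 3) in long-term nontarget cells and 23.7 ± 3.19 in their knockdown counterparts, and NRP1 made up 59.3 ± 4.85% and 80.4 ± 1.53% of it. NRP1 shares exonic bases with the antisense gene AL121748.2, and NRP2 with AC007362.1.

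Plexins are the signalling receptors of semaphorins, and 6 of 9 were tested. PLXNA3, which pairs with NRP2 for SEMA3F, fell in long-term knockdown (-0.81, adjusted p = 0.0394), with levels of 19.0, 23.4 and 37.7 CPM in nontarget and 14.2, 12.2 and 19.8 CPM in knockdown libraries that overlapped. The call was lost without long-term nontarget replicate 3, where the value was -0.48 (adjusted p = 0.213), and without long-term knockdown replicate 1 (0.123) or 2 (0.140). PLXNA3 also fell from short-term to long-term knockdown cells (-0.88, adjusted p = 0.0283), which was lost without short-term knockdown replicate 3 at -0.58 (0.113) and without long-term knockdown replicate 1 (0.0967) or 2 (0.108). Its interaction did not pass (-0.90, adjusted p = 0.147), but did with no filter (0.00326) and a replicate block (0.00354). PLXNA1, PLXNB1, PLXNB2, PLXNB3 and PLXND1 did not pass in any comparison, but alternatives changed this for PLXNA1 and PLXNB2. PLXNA1 passed in long-term knockdown with a replicate block (0.00345) and replicate 3 of every group left out (0.00642), in long culture with knockdown with a replicate block (0.00612) and replicate 3 of every group left out (0.0217), and in the interaction with a replicate block (0.0154). PLXNB2 passed in long culture with knockdown with a replicate block (0.0302) and replicate 3 of every group left out (0.0201), and in long culture without knockdown with a replicate block (0.0267). PLXNA3 shares exonic bases with LAGE3 on the opposite strand.

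UNC5A (ENSG00000113763.10), a netrin receptor that mediates repulsion, was at 2.87, 2.73 and 2.99 CPM (nontarget) and 6.20, 7.31 and 6.72 CPM (knockdown) in short-term libraries, and 2.14, 0.774 and 5.69 CPM (nontarget) and 6.36, 7.78 and 16.5 CPM (knockdown) in long-term libraries. The 3 knockdown libraries of each age lay above the 3 nontarget libraries of that age, and long-term replicates 3 were the highest of both long-term groups. UNC5A rose 3.35-fold in long-term knockdown (log2 fold change 1.75, SE 0.447, adjusted p = 0.00781), and without long-term nontarget replicate 3 the value was 2.71 (2.45e-04). In short-term knockdown it did not pass (1.23, adjusted p = 0.128), but did without long-term nontarget replicate 3 (0.0377) or long-term knockdown replicate 3 (0.0492), and with no filter (0.00115), a replicate block (0.0156), fits of 2 groups only (0.00307) and replicate 3 of every group left out (0.00690). The 40 nearest tested genes had medians of 0.50 (long-term) and 0.51 (short-term), whose part was not tested. UNC5A shares exonic bases with HK3 on the opposite strand. It was the only UNC5 gene with enough counts for a test, and UNC5B, UNC5C and UNC5D had 1, 22 and 3 counts over the 12 libraries.

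ROBO1 (ENSG00000169855.19, chr3:78597240-79767815, minus strand), a Slit receptor, was at 15.7, 11.7 and 15.2 CPM (nontarget) and 8.60, 6.87 and 9.03 CPM (knockdown) in short-term libraries, and 19.4, 17.2 and 18.6 CPM (nontarget) and 21.96, 23.9 and 18.1 CPM (knockdown) in long-term libraries. Short-term knockdown libraries were the 3 lowest of the 12, and the long-term groups overlapped. ROBO1 fell 1.74-fold in short-term knockdown (log2 fold change -0.80, SE 0.176, adjusted p = 0.00624) and rose 2.62-fold from short-term to long-term knockdown cells (log2 fold change 1.39, SE 0.170, adjusted p = 9.06e-06). In long-term knockdown against nontarget it did not pass (0.21, adjusted p = 0.330), and the interaction was 1.02 (SE 0.234, adjusted p = 0.00667). The share of ROBO1 in the Robo level per length was 51.1 ± 4.83% (nontarget; SD, n = 3) and 36.2 ± 4.95% (knockdown) in short-term cells and 61.6 ± 5.28% (nontarget) and 63.0 ± 5.98% (knockdown) in long-term cells. ROBO3 did not pass in any comparison.

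**Figure D5:**
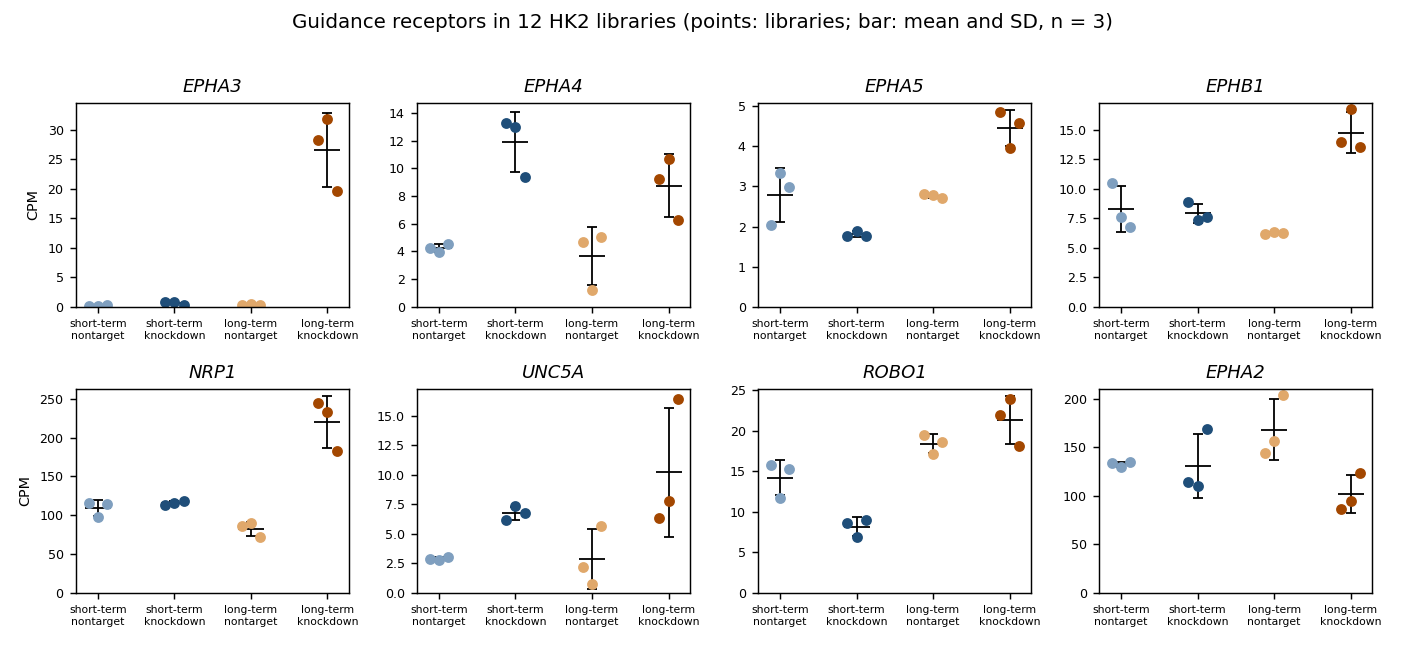
CPM in each of the 12 libraries for the 7 guidance receptors described in full and EPHA2, with bars of the group mean and SD (n = 3). EPHA3 is near 0 except in the 3 long-term knockdown libraries, and NRP1 and EPHB1 are highest there.

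A list of 66 further genes of these pathways, outside the families above, covered co-receptors, adaptors and cytoskeletal effectors. Of them 54 were tested, and DCC, DSCAM and TREM2 had 0 counts. In long-term knockdown 22 of the 54 passed (40.7%, beside the 29.5% of all genes), with a median log2 fold change of -0.20, beside 0.00 over all genes. There were 4 higher, beside 13.7% of all genes, and 18 lower, beside 15.8%. Leaving out 1 library gave 15 to 25 calls, beside 23.2% to 31.8% of all genes. FLRT2, a membrane partner of UNC5 receptors, fell (-2.07, adjusted p = 1.90e-06), and so did DPYSL4 (-2.40, adjusted p = 1.42e-04) and DPYSL2 (-0.98, adjusted p = 4.21e-06), which belong to the collapsin response mediators of semaphorin signals. Of the same 5 genes, DPYSL5 (-0.39, adjusted p = 0.0325) also fell, DPYSL3 (0.73, adjusted p = 2.95e-05) rose, and CRMP1 (0.37, adjusted p = 0.151) did not pass. VAV3, a guanine exchange factor downstream of Eph receptors, rose (1.56, adjusted p = 2.65e-04), and so did LIMK1 (0.91, adjusted p = 7.59e-05), the kinase that inactivates cofilin. In short-term knockdown 13 passed (24.1%, beside 10.3% of all genes), 8 higher (beside 5.62%) and 5 lower (beside 4.71%). Among the rises were VAV3 (1.27, adjusted p = 0.00701) and LIMK1 (0.56, adjusted p = 0.0121). Of the collapsin response mediators, DPYSL5 (1.10, adjusted p = 6.27e-05) and DPYSL2 (0.37, adjusted p = 0.0382) rose and DPYSL4 (-1.66, adjusted p = 0.0217) fell there. The short-term count was 6 without short-term nontarget replicate 1 (beside 6.17% of all genes), 7 without short-term nontarget replicate 2 (6.36%) and 8 without short-term knockdown replicate 1 (6.95%). L1CAM, a co-receptor with NRP1 for SEMA3A, rose in short-term (0.71, adjusted p = 0.0226) and fell in long-term knockdown (-0.75, adjusted p = 0.00656), with an interaction of -1.46 (adjusted p = 0.00135). NEO1, the neogenin receptor of netrins, fell slightly in long-term knockdown (-0.29, adjusted p = 0.0281). Long culture gave 12 calls without knockdown (22.2%, beside 7.55% of all genes), 5 higher (beside 3.17%) and 7 lower (beside 4.38%). With knockdown it gave 16 (29.6%, beside 26.6%), 3 higher (beside 11.5%) and 13 lower (beside 15.2%). The interaction gave 14 (25.9%, beside 13.4%), 4 higher (beside 4.98%) and 10 lower (beside 8.43%). The count without knockdown was 7 on leaving out short-term nontarget replicate 1 (beside 4.10% of all genes) or replicate 2 (4.52%).

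The members lie on 19 chromosomes, most often chromosome 3 with 13 members and chromosome 1 with 11. All 5 members on chromosome 5 were tested, and 4 of them rose in long-term knockdown: SEMA5A, SLIT3, UNC5A and EFNA5. Of all genes tested on chromosome 5, 23.9% were higher and 13.5% lower in that comparison, beside 13.7% and 15.8% over all chromosomes. Over the whole of chromosome 5 the median log2 fold change was 0.13 in that comparison, beside neighbourhood medians of 0.20, 0.57, 0.50 and -0.03 in the same order. The part of these regional medians in the members' values was not tested.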

How the data were processed

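Polyadenylated RNA of 12 HK2 libraries, prepared with the TruSeq RNA kit and sequenced on a MiSeq, was trimmed with fastp, mapped to GRCh38 with STAR and counted per gene with featureCounts by the authors. The deposited table and per-library files hold raw counts per gene, whole numbers without normalization, and both hold the same counts. The table also holds a score, made by the authors by dividing the counts by 1 size factor per library with DESeq2, which was not used. Software versions, the annotation release and the strand setting are not stated, so overlapping genes on either strand cannot be told apart.

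The raw counts were fitted with edgeR 4.0.16 in R 4.3.3. Genes were kept by filterByExpr on the groups, which left 13959 of 58288 IDs with 99.8% of the counts. Libraries were scaled by TMM, and 1 quasi-likelihood model with a term per group was fitted to all 12 libraries (robust, prior count 0.125), with a biological coefficient of variation of 12.0%. Adjustment was by Benjamini-Hochberg, with a threshold of 0.05. The same steps were also run on simulated data with known changes, and no result given here rests on that run. Standard errors were taken from the test statistic, as the absolute log2 fold change over the square root of its F value. At low counts they can be smaller than counting error alone, as for EPHA3, NTN1 and SEMA3E, and then overstate the precision. Symbols, coordinates and exonic lengths came from GENCODE 29, in which 55661 IDs had the same version, 2364 another version and 263 no entry. Coordinates are printed only for IDs of the same version.

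Described with values in every library were, in each of the 5 comparisons, the members with an absolute log2 fold change of at least 1 that passed the test, at most the 12 largest per comparison. Other members that passed are named with their log2 fold change, and members that did not pass are named to complete a ligand and receptor pair or a family. Members and lists were chosen with earlier results of these data known. The alternatives were RLE factors, DESeq2 1.42.0, no filter, a mean of at least 10 CPM, a block for the replicate number, fits of 2 groups only, calls of at least 2-fold, the per-library files, each library left out in turn, and, chosen after seeing the data, all groups without replicate 3. Whether libraries of the same replicate number belong together was checked by the correlation of their deviations from the group mean, with a limit of 0.1.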

Additional observations from a re-analysis of the deposited data

Results flagged for a closer look

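For 10 guidance genes the knockdown effect differed between long-term and short-term cells in the test of the difference itself, 21.7% of the 46 tested, beside 13.4% of all genes. Each value below is the long-term minus the short-term log2 fold change, from edgeR's quasi-likelihood test. It was 2.56 (SE 0.396, adjusted p = 2.23e-04) for NTNG1 and 1.35 (SE 0.170, adjusted p = 2.79e-05) for NRP1. For EPHB1 it was 1.31 (SE 0.268, adjusted p = 0.00272), for EPHA5 1.30 (SE 0.375, adjusted p = 0.0279), for SEMA3B 1.12 (SE 0.364, adjusted p = 0.04996) and for ROBO1 1.02 (SE 0.234, adjusted p = 0.00667). Negative values were found for SEMA3E at -2.28 (SE 0.323, adjusted p = 8.94e-05), NTN4 at -1.44 (SE 0.241, adjusted p = 4.79e-04) and SEMA4D at -0.84 (SE 0.246, adjusted p = 0.0296). For EPHA3 it was 4.69 (SE 1.11, adjusted p = 0.00783), but EPHA3 had enough counts for a test only because of its long-term knockdown libraries (578 counts, beside 4, 13 and 7 in the other groups), so a difference was bound to be found and the value is a description.

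The sign of the effect changed between ages for SEMA3E, which passed the test in both, with 0.65 in short-term and -1.64 in long-term knockdown. The short-term value of SEMA3E no longer passed on leaving out any of 7 libraries (adjusted p up to 0.183; short-term, all 6; long-term nontarget 2). Leaving out 1 library changed the call for 4 of the 10: EPHA3 without short-term nontarget replicate 3 (adjusted p = 0.0764), EPHA5 without any of 7 libraries (up to 0.0874; short-term nontarget 2 or 3, short-term knockdown 1 or 3, long-term nontarget 2 or 3, long-term knockdown 1), SEMA3B without any of 9 (up to 0.119; short-term nontarget 1 or 3, short-term knockdown 1, 2 or 3, long-term nontarget 1 or 2, long-term knockdown 2 or 3) and SEMA4D without any of 5 (up to 0.0943; short-term nontarget 1 or 2, short-term knockdown 3, long-term nontarget 2, long-term knockdown 1).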

How the results depend on the processing

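No result changed direction under the alternatives that were run. FLCN passed in both knockdown comparisons under each of them except 2: a mean of 10 CPM left it out of the test, and its long-term change is below 2-fold. With RLE factors the guidance genes called were 6, 21, 5, 18 and 9 in short-term knockdown, long-term knockdown, long culture without knockdown, long culture with knockdown and the interaction, and with DESeq2 6, 20, 6, 18 and 10, beside 6, 21, 6, 18 and 10 in the report. Of all genes, 10.4%, 29.6%, 7.54%, 26.6% and 13.3% were called with RLE factors and 10.9%, 28.9%, 8.04%, 26.1% and 14% with DESeq2, beside 10.3%, 29.5%, 7.55%, 26.6% and 13.4%. Fits of 2 groups only gave 8, 19, 7 and 17 in the first 4 (of all genes 12%, 26.0%, 9.57% and 21.3%), no filter on low counts, with 69 members tested, gave 9, 24, 9, 22 and 15 (of all genes 6.37%, 16.3%, 4.81%, 14.9% and 8.13%), and the per-library files gave the same counts as the table.

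A filter at a mean of 10 CPM left 26 members to test, of which 3 were called in short-term knockdown, 11 in long-term knockdown, 3 in long culture without knockdown and 4 in the interaction, where fewer members could be called, beside 11.2%, 31.9%, 7.11% and 13.8% of all genes. Calls that also needed a 2-fold change numbered 13 in long-term knockdown, 2 in long culture without and 8 in long culture with knockdown for guidance genes. For the signalling list they numbered 5 in short-term knockdown, 3 in long-term knockdown, 5 in long culture without knockdown, 3 in long culture with knockdown and 6 in the interaction, since this rule is stricter by construction. It called 3.19%, 9.92%, 2.87%, 8.78% and 7.45% of all genes in the 5 comparisons.

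Libraries of the same replicate number were correlated above 0.1 in all 3 pairs in long-term knockdown (0.123 to 0.458) and in long culture with knockdown (0.223 to 0.455), where 5 of 6 and 6 of 6 libraries correlated best with their own number. In short-term knockdown the correlations were 0.0172 to 0.111, with 3 of 6 libraries best with their own number, and in long culture without knockdown -0.0340 to 0.0767, with 2 of 6, so not every library correlates best with its own number and those libraries are not shown to be paired. With a replicate block, long-term knockdown had 24 calls, adding SEMA3F (0.34), PLXNA1 (-0.45) and EPHB2 (-0.26), and long culture with knockdown 23, adding SEMA3F (0.59), PLXNA1 (-0.42), EPHA2 (-0.36), SLIT3 (0.71) and PLXNB2 (0.27), as log2 fold changes. In the comparisons not shown to be paired the block gave 10 calls in short-term knockdown and 11 in long culture without knockdown, and it gave 18 in the interaction, and the cause was not tested. Of all genes the block called 16.9%, 36.8%, 12.8%, 34.4% and 20.6% in the 5 comparisons. Without replicate 3 of every group, an alternative chosen after seeing the data, short-term knockdown had 10 calls, long-term knockdown 22, long culture without knockdown 7, long culture with knockdown 22 and the interaction 14, beside 14.2%, 33.8%, 11.3%, 31.4% and 16.6% of all genes. The interaction then added SEMA3F, NTN1, SEMA7A, EPHA2, SEMA6B, SLIT3 and SEMA4B and lost EPHA3, EPHA5 and SEMA3B, and the cause was not tested.

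Leaving out each library in turn gave 4 to 9 guidance genes called in short-term knockdown, 18 to 22 in long-term knockdown, 3 to 7 in long culture without knockdown, 15 to 19 in long culture with knockdown and 7 to 12 in the interaction. These counts, and the 22 long-term knockdown calls without replicate 3, include SEMA3D, EFNA2 or PLXNC1 where a fit with fewer libraries let them in, although their tests are not used. The share of all genes called moved as well, over 6.17% to 11.9%, 23.2% to 31.8%, 4.10% to 9.05%, 19.9% to 27.3% and 10.3% to 16.1% in the same order. For the signalling list the counts were 6 to 15, 15 to 25, 7 to 13, 13 to 20 and 11 to 16 in the same order. Over single genes named in the report, 105 of the values under alternatives no longer passed, all with the same sign, and the report names the libraries whose absence has this effect.

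Depth limits these results. At 5825779 to 8991051 counts per library, 24 of the 70 members could not be tested, and 0 counts in a library allow up to 0.530 CPM. With 3 libraries per group, members that did not pass are not shown to be unchanged. The clone behind each library is unknown, and shRNA and clone effects cannot be told apart, nor can fewer cells with a transcript and less of it per cell. The strand setting used in counting is not stated, which concerns members that share exonic bases with another gene. Among tested members the largest shared parts were 26.2% of the exonic bases of EFNB2 (with AL138689.2) and 22.3% of SEMA4G (MRPL43). PLXNB3 shared 20.4% (SRPK3) and EFNA4 15.0% (AL691442.1), each with a gene on the same strand. RNA levels say nothing on the proteins or on signalling between cells.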
